A study of Mus musculus with 6 samples.

Results

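Integrins are cell-surface receptors built from 1 alpha and 1 beta chain, and laminins are secreted trimers of 1 alpha, 1 beta and 1 gamma chain that form the base sheet of a basement membrane. The nidogens (NID1, NID2) tie that sheet to the collagen IV network, and perlecan (HSPG2) and agrin (AGRN) are heparan sulphate proteoglycans that anchor it and bind growth factors. In peripheral nerve, Schwann cells lie on such a sheet and grip it through laminin-binding integrins. Some integrins that contain the alphaV chain also release TGF-beta from its latent complex, and endoglin (ENG) helps receptors of that family bind their ligands.

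The members are the gene symbols of the expression table that name integrin alpha chains, integrin beta chains 1 to 8 or laminin chains, together with NID1, NID2, HSPG2 and AGRN. They numbered 43 of 23284 symbols: 18 integrin alpha chains, 8 integrin beta chains, 12 laminin chains, 4 linkers and the pseudogene LAMB2P1, whose symbol fits the same pattern. Of the 43, 27 reached a mean of 1 FPKM over all tumours and entered the tests, and 16 did not. FPKM counts sequenced fragments per length of transcript and per mapped fragment total, so levels of different genes can be compared.

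STS26T, 1 human line of malignant peripheral nerve sheath tumour, was injected under the skin of athymic nude mice. Once tumours could be felt, 3 received anti-ENG antibodies, TRC105 against the human and M1043 against the mouse protein, and 3 received the matching IgG control. Both arms were given 10 mg/kg into the peritoneum, 2 times a week for 3 weeks. Such mice lack a thymus and mature T cells but keep their other host cells, and RNA of the host enters these human gene values only where mouse reads align to the human genome. The description codes share a number within anti-ENG 1 and 2 and within IgG control 2 and 3. No label states whether a shared number means 1 animal, so p-values measure only the spread between these samples. The fit treats the tumours as independent, and p-values may be too small if a shared number means 1 animal.

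Relative depth was read from the most common per-gene ratio of FPKM in IgG control 1 to FPKM in each other tumour. Only values above 0 and at most 0.05 FPKM were used. It was between 1.13 and 1.45 times that of IgG control 1 in the anti-ENG tumours and up to 1.17 times in the other IgG tumours. Any scaling of the deposited values would also enter this ratio. Absolute depth is unknown. Anti-ENG 1 and IgG control 1 stood farthest apart on the leading principal component, so log2 fold changes of members and of the pathway genes named are also given without both of these tumours where it could be fitted. ENG itself had 15.5, 29.5 and 26.7 FPKM in anti-ENG 1, 2 and 3, against 41.0, 23.9 and 22.1 FPKM in IgG control 1, 2 and 3. Of 10 Schwann and neural crest markers, 5 stayed under 1 FPKM in every tumour, among them SOX10, S100B, ERBB3 and CDH19, the last at 0 throughout. SOX9 had 19.1 to 31.1 FPKM.

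The comparison asks how blocking endoglin bears on the receptors and sheet proteins by which these tumour cells hold their matrix. No member passed the test, and none of all genes did: 0 of 27 members were called by limma at a Benjamini-Hochberg adjusted p under 0.05, where 0% of the 12586 genes tested were called. At an unadjusted p under 0.05 there were 3 members, ITGA1, NID1 and ITGB3, all with lower estimates in the anti-ENG tumours, where 9.17% of all genes tested passed that mark. Estimates were lower in the anti-ENG tumours for 22 of 27 members, against 48.8% of all genes tested. The median log2 fold change was -0.27 over the members and 0.0065 over all genes tested, with fold changes taken as anti-ENG minus IgG control on the log2(FPKM + 1) scale. With each tumour rescaled to the same sum of FPKM, 26 of 27 members and 67% of all genes had lower estimates, and the median of all genes moved to -0.10.

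The lowest and highest values of the members came mostly from 1 tumour in each arm. Anti-ENG 1 had the lowest value of the 6 tumours in 18 of the 27 members, against 25.4% of all genes tested. IgG control 1 had the highest value in 14 of 27, against 21.4% of all genes. Without anti-ENG 1 alone, 17 of 27 members had lower estimates (median log2 fold change -0.11), against 48.0% of all genes. Without IgG control 1 alone, 19 of 26 did (median -0.16), against 46.4%. Without both tumours, 13 of 26 members had lower estimates, against 46.2% of all genes. The median log2 fold change of the members was then 0.017, where that of all genes was 0.019. ITGA7 is the member that then fell under the 1 FPKM mark. These tumours hold most of the extreme values, so leaving out both was bound to move estimates toward 0. The IgG tumours that remain share a code number.

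**Figure D1:**
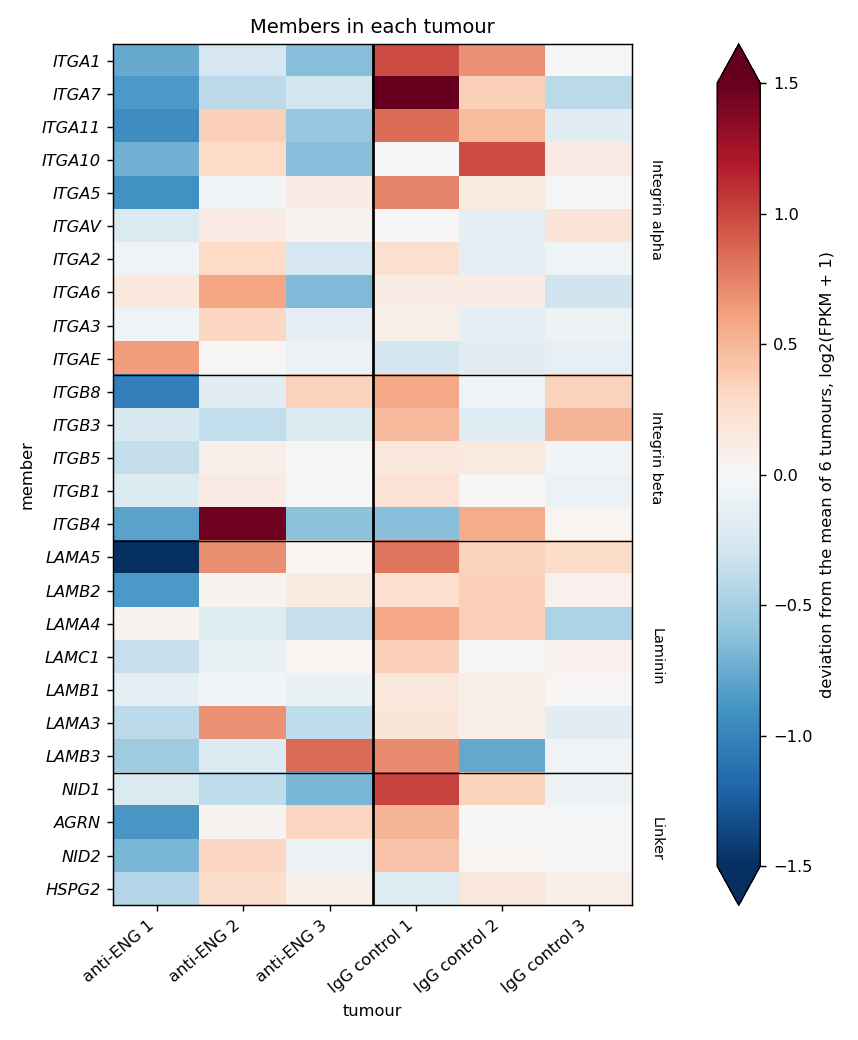
Each cell gives how far a tumour lies from the mean of the 6 tumours on the log2(FPKM + 1) scale, for 26 of the 27 tested members (rows) in the anti-ENG tumours (left) and the IgG tumours (right), with colours capped at 1.5. The column of anti-ENG 1 is mostly blue, with the lowest value in 18 members, and that of IgG control 1 mostly red, with the highest value in 14.

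The tumours of 1 arm also differed from each other. Anti-ENG 1 and 2, which share a code number, differed by 2-fold or more on the FPKM + 1 scale in 6 of 27 members, and anti-ENG 1 was the lower of the pair in 22. IgG control 2 and 3, which also share a number, differed that much in 0 of 27. These counts within an arm were not made over all genes tested, so they do not set the members apart from other genes. Anti-ENG and IgG values were fully separate in 5 members, against 17.3% of all genes tested, so the members' share of 18.5% was near the background. These were ITGA1, NID1, ITGB3 and LAMB1, which were lower in the anti-ENG tumours, and ITGAE, which was higher. In that lower direction the 4 members stand against 6.75% of all genes.

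The alpha chains of the collagen receptors had the lowest median estimate of the integrin groups, though the laminin receptor chain ITGA7 lay below all of them but ITGA1, and ITGA2 lay near 0. The members ITGA1, ITGA2, ITGA10 and ITGA11 each pair with ITGB1 to bind collagens. All 4 had lower estimates in the anti-ENG tumours (median log2 fold change -0.74), against 48.8% of all genes tested. ITGA1, which binds collagen IV, had 0.659, 1.35 and 0.800 FPKM in anti-ENG 1, 2 and 3, against 4.495, 3.49 and 1.78 FPKM in IgG control 1, 2 and 3. All anti-ENG tumours lay below all IgG tumours, and 2 of the 3 anti-ENG tumours were under 1 FPKM. ITGA1 averaged 0.935 ± 0.363 FPKM under anti-ENG and 3.26 ± 1.37 FPKM under IgG (SD, n = 3 each). Its log2 fold change was -1.10 (SE 0.28, limma adjusted p = 0.529), and -0.78 without anti-ENG 1 and IgG control 1. At this low level the pseudocount matters, and with 0.1 in place of 1 the value was -1.66.

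ITGA11, a receptor for fibrillar collagen known from fibroblasts, had 8.43, 21.9 and 11.1 FPKM in anti-ENG 1, 2 and 3, against 31.2, 23.97 and 14.9 FPKM in the IgG tumours. Anti-ENG 2 lay within the IgG range, so the groups overlapped. ITGA10 had 2.16, 5.35 and 2.33 FPKM under anti-ENG, against 4.07, 9.25 and 4.67 FPKM under IgG, and overlapped likewise. ITGA2, the fourth collagen receptor chain, ran from 11.7 to 17.6 FPKM in the anti-ENG tumours and from 12.7 to 16.9 FPKM in the IgG tumours, inside the anti-ENG range. Without anti-ENG 1 and IgG control 1 the 4 chains had 3 lower estimates, against 46.2% of all genes, and a median of -0.49. The 8 fibroblast markers summed to between 354 and 933 FPKM in the anti-ENG tumours, against 795 to 1501 FPKM in the IgG tumours. Estimates were lower for 7 of these 8 markers, against 48.8% of all genes tested. The markers had a median log2 fold change of -0.81, and -0.13 without anti-ENG 1 and IgG control 1. Their part in these values was not tested. The line is human and the host is mouse, so these human gene values are not a measure of host fibroblasts. RNA of the tumour cells and host reads that align to the human genome cannot be told apart here. In whole tumours, fewer cells of a type and less RNA per cell cannot be told apart either.

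The laminin receptors gave no common direction. ITGA3 pairs with ITGB1 as a receptor for laminins that carry LAMA3 or LAMA5. It had 46.9, 60.5 and 44.0 FPKM in the anti-ENG tumours, against 51.5, 43.8 and 46.0 FPKM in the IgG tumours (log2 fold change 0.087, SE 0.15, limma adjusted p = 0.830). ITGA6, which pairs with ITGB1 or ITGB4, had 33.4, 45.6 and 18.5 FPKM under anti-ENG, against 32.3, 32.4 and 24.1 FPKM under IgG (log2 fold change 0.054, SE 0.30, limma adjusted p = 0.957). In both genes the IgG tumours lay within or just beside the anti-ENG range, and both estimates turned below 0 when tumours were rescaled to the same sum. Without anti-ENG 1 and IgG control 1 they were 0.20 for ITGA3 and 0.058 for ITGA6.

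ITGA7, a laminin receptor chain of muscle and Schwann cells, was far lower than ITGA3 and ITGA6. It had 0.199, 0.658 and 0.805 FPKM in anti-ENG 1, 2 and 3, against 5.56, 1.80 and 0.646 FPKM in the IgG tumours. Its IgG mean was carried by IgG control 1, and IgG control 3 lay among the anti-ENG tumours. For ITGA7 the log2 fold change was -1.03 (SE 0.47, limma adjusted p = 0.530), and -1.76 with a pseudocount of 0.1. Without IgG control 1 the gene averaged under 1 FPKM and was not fitted. ITGB4, the partner of ITGA6 in hemidesmosomes, had 0.270, 5.13 and 0.454 FPKM in the anti-ENG tumours, against 0.435, 2.27 and 1.26 FPKM in the IgG tumours. Its highest and its lowest value both came from the anti-ENG arm, in the tumours of 1 code number.

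Among receptors that read the RGD motif of fibronectin and vitronectin, ITGA5 and ITGAV were expressed, while ITGA8 stayed at or under 0.177 FPKM and ITGA2B, the platelet chain, at or under 0.0972 FPKM. ITGA5, the fibronectin receptor chain, had 35.3, 65.2 and 72.6 FPKM in anti-ENG 1, 2 and 3, against 112, 74.1 and 65.7 FPKM in IgG control 1, 2 and 3. The ends of this range were the tumours numbered 1, and the others lay close together. For ITGA5 the log2 fold change was -0.56 (SE 0.30, limma adjusted p = 0.550), and -0.021 without anti-ENG 1 and IgG control 1. ITGAV, which serves 5 beta chains, was even across tumours, with 40.1 to 50.9 FPKM under anti-ENG and 41.9 to 53.3 FPKM under IgG.

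ITGB1, the beta chain shared by most matrix receptors, was the most abundant member in every tumour. It had 361, 451 and 407 FPKM in the anti-ENG tumours, against 482, 413 and 391 FPKM in the IgG tumours, which overlap. For ITGB1 the log2 fold change was -0.078 (SE 0.15, limma adjusted p = 0.848, 95% interval -0.42 to 0.26), and 0.092 without anti-ENG 1 and IgG control 1. The alpha chains known to pair with ITGB1 summed to 181, 269.7 and 210.5 FPKM in the anti-ENG tumours, against 305, 245 and 226 FPKM in the IgG tumours. ITGB1 thus stood at 1.67 to 1.99 times its alpha partners under anti-ENG and at 1.58 to 1.73 times under IgG, above their sum in all 6 tumours.

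Of the beta chains that join ITGAV, ITGB5, a vitronectin receptor chain, had 38.7, 52.4 and 50.6 FPKM in the anti-ENG tumours, against 55.5, 55.1 and 48.4 FPKM in the IgG tumours (log2 fold change -0.17, SE 0.14, limma adjusted p = 0.668, and -0.0034 without both tumours numbered 1). ITGB3, the beta chain of another vitronectin receptor, had 8.38, 7.54 and 8.47 FPKM under anti-ENG, against 14.45, 8.64 and 14.7 FPKM under IgG. The anti-ENG tumours of ITGB3 lay together just under IgG control 2, and the other IgG tumours stood apart above. Its estimate was -0.54 on the log2 scale (SE 0.20, limma adjusted p = 0.529), and -0.45 without anti-ENG 1 and IgG control 1. ITGB8, which with ITGAV presents and activates latent TGF-beta, had 5.48, 10.8 and 15.8 FPKM under anti-ENG, against 18.7, 11.6 and 15.8 FPKM under IgG. Its lowest and highest values were again anti-ENG 1 and IgG control 1, and the groups overlapped. ITGB6, the other beta chain known for TGF-beta activation, did not reach the 1 FPKM mean and ranged from 0.0676 to 1.005 FPKM. The 7 platelet markers, the cells known for ITGA2B with ITGB3, summed to 0.447 to 1.19 FPKM in the anti-ENG tumours and 0.536 to 1.84 FPKM in the IgG tumours, with GP9 and PPBP at 0 throughout.

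**Figure D2:**
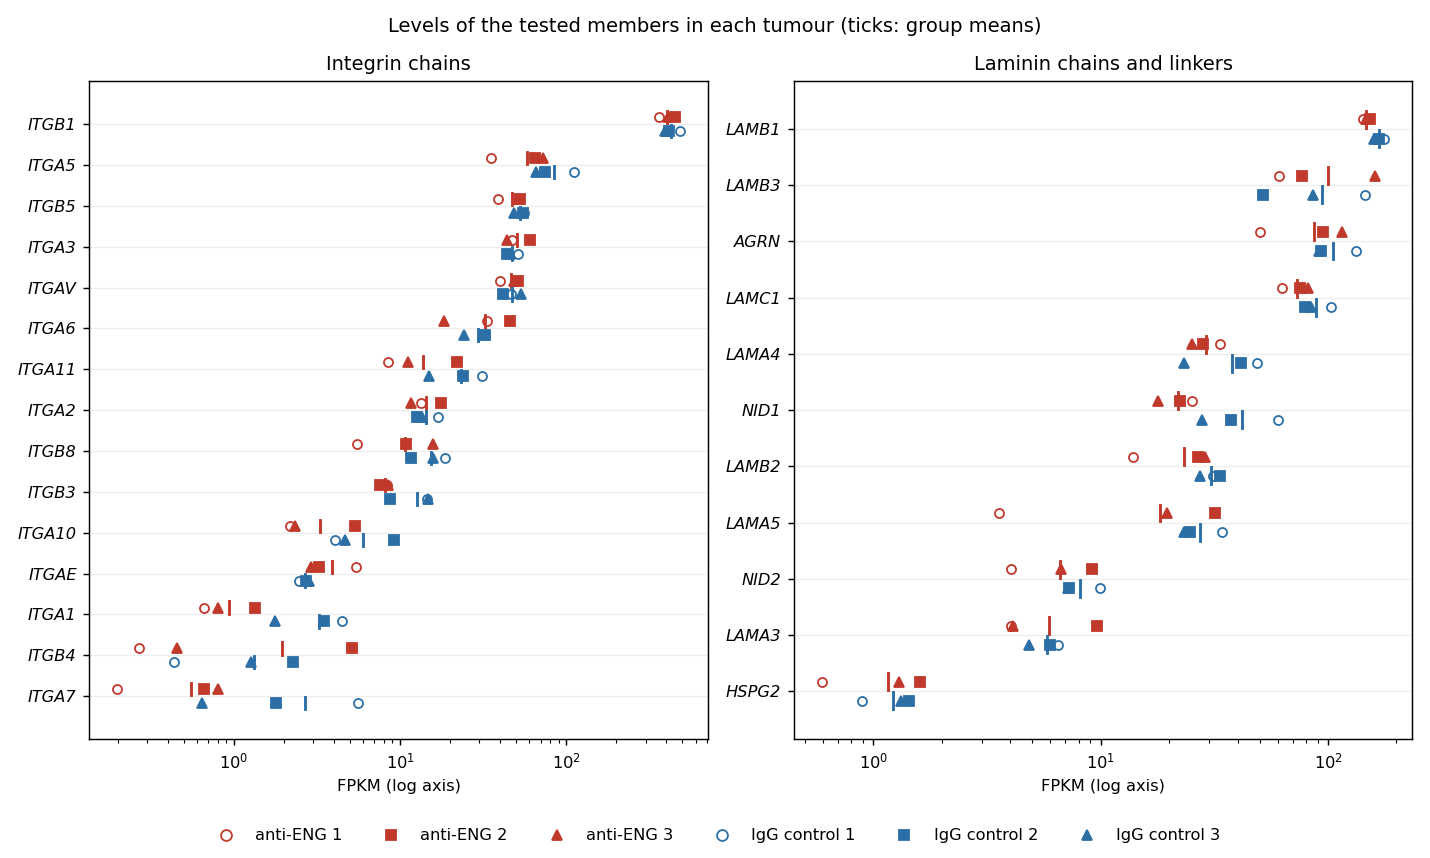
FPKM on a log axis of 26 of the 27 tested members in each tumour, integrin chains on the left and laminin chains and linkers on the right, with anti-ENG tumours in red above IgG tumours in blue, a symbol for each replicate number and a short bar at each group mean. ITGB1 lies between 361 and 482 FPKM in all tumours, and LAMA5 has 1 point, anti-ENG 1 at 3.57 FPKM, far left of the others.

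The leukocyte integrin chains were close to 0 except for ITGAE. ITGAL, ITGAM, ITGAX and ITGAD reached at most 0.0477, 0.650, 0.417 and 0.0492 FPKM in any tumour, their beta chain ITGB2 at most 0.241, and ITGB7 at most 0.313. ITGAE, the alpha chain of a lymphocyte receptor for E-cadherin, had 5.46, 3.24 and 2.93 FPKM in the anti-ENG tumours, against 2.45, 2.73 and 2.85 FPKM in the IgG tumours. The groups did not overlap, but anti-ENG 2 and 3 lay close above IgG control 3. The ITGAE estimate was 0.37 on the log2 scale (SE 0.21, limma adjusted p = 0.555), 0.15 without anti-ENG 1 and 0.11 without both tumours numbered 1. ITGB7 is its known partner, and it was far below ITGAE in every tumour. The 10 leukocyte markers summed to 74.1 to 146.6 FPKM under anti-ENG and 86.8 to 150.6 FPKM under IgG, mostly from CD68 at 58.4 to 115 FPKM and S100A8 at 1.085 to 85.5 FPKM. S100A8 averaged 16.7 FPKM under anti-ENG and 38.3 FPKM under IgG (log2 fold change -1.74, SE 1.35, limma adjusted p = 0.648), and the part of these markers in ITGAE was not tested. Of them CD3E was at 0 in all tumours and PTPRC reached at most 1.13 FPKM.

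ITGA4 and ITGA9, receptors for VCAM1 and other ligands, did not enter the tests. ITGA4 had 0.387, 0.396 and 0.290 FPKM in the anti-ENG tumours, against 0.214, 1.57 and 1.40 FPKM in the IgG tumours. The higher values were those of IgG control 2 and 3, which share a code number. ITGA9 was at most 0.0729 FPKM.

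By the 24 alpha-beta pairs known for human integrins, 10 had both chains at 1 FPKM or more in all 6 tumours. Of these, 6 joined ITGB1 to ITGA2, ITGA3, ITGA5, ITGA6, ITGA10 or ITGA11, and 4 joined ITGAV to ITGB1, ITGB3, ITGB5 or ITGB8. The pair of ITGA1 with ITGB1 met the mark in all 3 IgG tumours and in 1 of 3 anti-ENG tumours, anti-ENG 2. Pairs with ITGB4, ITGB6, ITGB7 or ITGB2 did not meet it in all tumours. Transcript levels set which chains were present as RNA, and the receptors themselves were not measured.

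**Figure D3:**
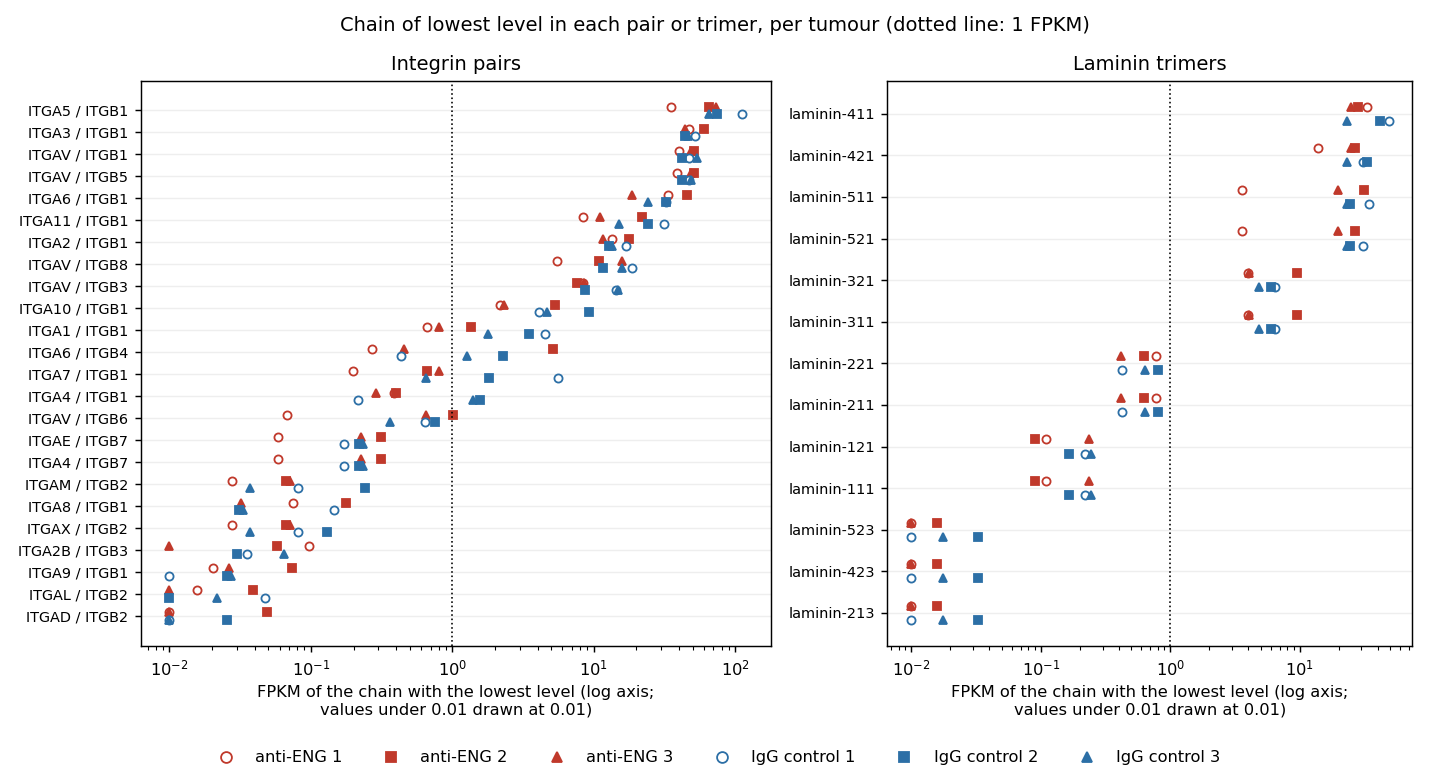
For each known integrin pair (left) and laminin trimer (right), the FPKM of whichever chain has the lowest level in that tumour, on a log axis, with anti-ENG tumours in red above IgG tumours in blue, a dotted line at 1 FPKM and values under 0.01 drawn at 0.01. The 10 integrin pairs and 6 laminin trimers at the top lie right of the line in all 6 tumours. The trimer panel shows 13 of the 14 trimers.

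Of the laminin chains, 7 of the 8 tested had lower estimates in the anti-ENG tumours (median log2 fold change -0.23), against 48.8% of all genes tested, and none passed. The median was -0.15 without anti-ENG 1, -0.125 without IgG control 1 and, with 5 of 8 lower, -0.087 without both. In that last setting 46.2% of all genes had lower estimates. LAMB1, the common beta chain, had 143, 153 and 147 FPKM in anti-ENG 1, 2 and 3, against 177, 167 and 159 FPKM in IgG control 1, 2 and 3. The groups did not overlap and each was narrow. For LAMB1 the log2 fold change was -0.18 (SE 0.11, limma adjusted p = 0.574, 95% interval -0.43 to 0.070), and -0.12 without anti-ENG 1 and IgG control 1. LAMC1, the common gamma chain, had 62.7, 75 and 81.9 FPKM under anti-ENG, against 103, 79.1 and 84.0 FPKM under IgG, which overlap (log2 fold change -0.27, SE 0.15, limma adjusted p = 0.555, and -0.056 without both tumours numbered 1). LAMB1 ran at 1.79 to 2.28 times LAMC1 in the anti-ENG tumours and at 1.71 to 2.11 times in the IgG tumours.

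LAMB2, the beta chain of synaptic and vascular laminins, had 13.9, 26.8 and 28.7 FPKM in the anti-ENG tumours, against 31.1, 33.5 and 27.3 FPKM in the IgG tumours. Anti-ENG 1 alone stood apart. The pseudogene LAMB2P1 was at most 0.336 FPKM, and reads that LAMB2 and its pseudogene share may have been split between them in the authors' counting.

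The alpha chain decides which receptor a laminin trimer binds. LAMA4, the chain of mesenchymal and vessel laminins, had 33.4, 28.3 and 25.1 FPKM in the anti-ENG tumours, against 48.7, 41.5 and 23.2 FPKM in the IgG tumours, and IgG control 3 was the lowest of the 6. LAMA5, the most widespread alpha chain of adult basement membranes, had 3.57, 31.7 and 19.7 FPKM under anti-ENG, against 34.2, 24.7 and 23.4 FPKM under IgG. The value of LAMA5 in anti-ENG 1 was 18.1% of the lowest of the other 5 tumours, the smallest such share among the 27 members, an observation made after its values were seen. LAMA4 accordingly stood at 9.37 times LAMA5 in anti-ENG 1, at 0.893 and 1.28 times in anti-ENG 2 and 3, and at 0.993 to 1.68 times in the IgG tumours.

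LAMA1, the embryonic alpha chain, stayed at or under 0.245 FPKM, and LAMA2, the alpha chain of the main laminin of Schwann cells and muscle, ranged from 0.417 to 0.799 FPKM over all 6 tumours. LAMA3, the epithelial alpha chain, had 4.02, 9.60 and 4.10 FPKM in the anti-ENG tumours, against 6.51, 6.005 and 4.86 FPKM in the IgG tumours. LAMB4 and LAMC3 reached at most 0.318 and 0.0330 FPKM.

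LAMB3 is the beta chain of the anchoring laminin of skin. It had 60.8, 77.2 and 161 FPKM in the anti-ENG tumours, against 146, 51.8 and 85.5 FPKM in the IgG tumours, a spread of about the same width in each arm. For LAMB3 the log2 fold change was 0.076 (SE 0.45, limma adjusted p = 0.958). It was 0.74 without anti-ENG 1 and IgG control 1, and it turned below 0 with quantile normalization and with rescaling to the same sum. It stood at 8.04 to 39.3 times LAMA3, the alpha chain it joins, under anti-ENG and 8.63 to 22.35 times under IgG. The 8 squamous epithelial markers summed to 34.4 to 44.2 FPKM under anti-ENG and 32.9 to 43.2 FPKM under IgG. Of these, 3 were at 1 FPKM or more in every tumour, KRT10 at 23.7 to 31.0, KRT15 at 1.86 to 6.65 and TP63 at 1.33 to 12.7 FPKM. KRT1 was at 0 in every tumour, and KRT5 and KRT14 reached at most 0.335 and 1.01 FPKM. Their part in LAMB3 was not tested.

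Of 14 known laminin trimers, 6 had all chains at 1 FPKM or more in all 6 tumours. These were laminin-311, laminin-321, laminin-411, laminin-421, laminin-511 and laminin-521. At 5 FPKM there were 2, laminin-411 and laminin-421, since LAMA3 lies near that level and LAMA5 falls under it in anti-ENG 1.

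All 4 linkers had lower estimates in the anti-ENG tumours (median log2 fold change -0.32), against 48.8% of all genes tested. Without anti-ENG 1 and IgG control 1 the estimate was lower for 1 of 4, NID1, against 46.2% of all genes. The median of the linkers was then 0.067. NID1, the nidogen that joins laminin to collagen IV, had 25.3, 22.5 and 17.96 FPKM in anti-ENG 1, 2 and 3, against 60.6, 37.5 and 27.9 FPKM in IgG control 1, 2 and 3. The groups did not overlap, and anti-ENG 1 was here the highest of its arm. NID1 averaged 21.9 ± 3.71 FPKM under anti-ENG and 42.0 ± 16.8 FPKM under IgG (SD, n = 3 each). Its log2 fold change was -0.85 (SE 0.27, limma adjusted p = 0.529, 95% interval -1.48 to -0.22). It was -0.66 without anti-ENG 1 and IgG control 1, and -0.56 without IgG control 1 alone.

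NID2, the second nidogen, had 4.05, 9.12 and 6.68 FPKM under anti-ENG, against 9.96, 7.29 and 7.198 FPKM under IgG, which overlap. NID1 stood at 6.26, 2.46 and 2.69 times NID2 in the anti-ENG tumours, against 6.08, 5.15 and 3.88 times in the IgG tumours. AGRN, the main proteoglycan linker here, had 50.2, 95.4 and 116 FPKM in the anti-ENG tumours, against 132, 92.8 and 91.4 FPKM in the IgG tumours. For AGRN the log2 fold change was -0.33 (SE 0.31, limma adjusted p = 0.694), 0.016 without anti-ENG 1 and 0.19 without both tumours numbered 1. HSPG2 was low, with 0.596 to 1.604 FPKM under anti-ENG and 0.894 to 1.44 FPKM under IgG.

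**Figure D4:**
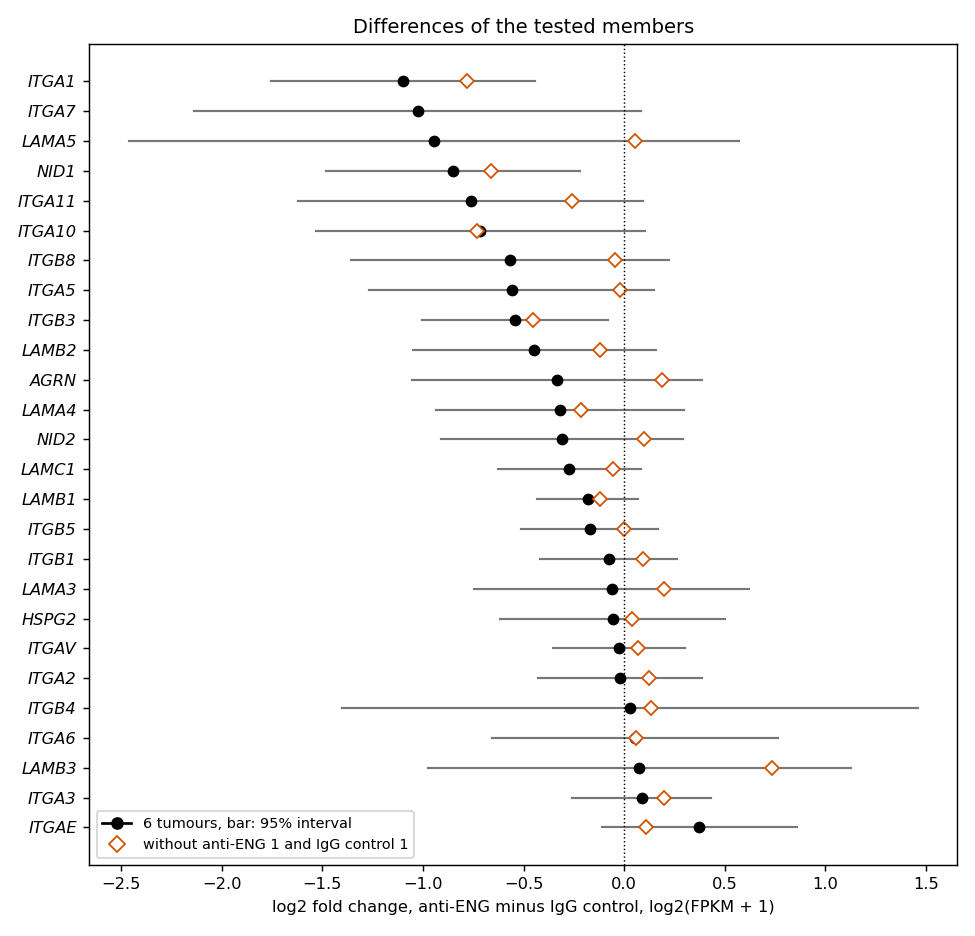
Log2 fold changes of 26 of the 27 tested members, anti-ENG minus IgG control, on the log2(FPKM + 1) scale, as black points with 95% intervals from limma as bars, and the estimate without anti-ENG 1 and IgG control 1 (open diamonds, every member shown but ITGA7). NID1, ITGA1 and ITGB3 have intervals below 0 before adjustment, and the diamonds of ITGA5, LAMA5 and AGRN lie close to or above 0.

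Genes that work beside these members were read in 3 further lists. Of the basement membrane collagens and other sheet components, 0 of 11 tested genes passed in either direction. At an unadjusted p under 0.05 there were 0, against 9.17% of all genes tested. In the anti-ENG tumours 10 had lower estimates (median log2 fold change -0.47), against 48.8% of all genes tested. COL4A1, a chain of the main collagen IV network, had 13.5, 34.6 and 44.7 FPKM in the anti-ENG tumours, against 74.0, 49.3 and 36.9 FPKM in the IgG tumours. Its log2 fold change was -0.86 (limma adjusted p = 0.539), and -0.11 without anti-ENG 1 and IgG control 1. The log2 fold change of COL15A1 was -0.98 and that of PXDN, the enzyme that crosslinks collagen IV, was -0.63 (limma adjusted p = 0.536 and 0.530). COL15A1 was at -0.59 without anti-ENG 1, -0.53 without IgG control 1 and -0.14 without both. PXDN was at -0.39, -0.43 and -0.19 in the same order. SPARC, a collagen-binding matrix protein and the most abundant gene of the list, had -0.31. Without anti-ENG 1 and IgG control 1 the list had 8 of 11 lower, against 46.2% of all genes. Its median was then -0.058, and SPARC was at -0.055.

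Of the other receptors for laminin and basement membranes, 0 of 11 passed in either direction and 2 had an unadjusted p under 0.05, against 9.17% of all genes tested. In this list 6 estimates were higher and 5 lower (median log2 fold change 0.090), where 48.8% of all genes had lower estimates. DDR2, a collagen receptor kinase, had 7.155, 8.29 and 8.75 FPKM in the anti-ENG tumours, against 15.8, 11.02 and 11.7 FPKM in the IgG tumours, with no overlap (log2 fold change -0.60, limma adjusted p = 0.529, and -0.38 without both tumours numbered 1). The syndecan SDC1 had a log2 fold change of 0.37, and RPSA, a laminin-binding protein that is also part of the ribosome, had one of 0.43. Without anti-ENG 1 and IgG control 1 these were 0.39 and 0.18. The list then had 3 of 11 lower, against 46.2% of all genes, and a median of 0.21. Of the integrin adaptors and activators, 0 of 15 passed in either direction and 2 had an unadjusted p under 0.05, against 9.17% of all genes. Among the adaptors 7 estimates were higher and 8 lower (median -0.038), against 48.8% of all genes lower. The kindlins FERMT1 and FERMT3 had log2 fold changes of 0.51 and -0.36, the ITGB1 tail-binding gene ITGB1BP1 had 0.36, and ZYX, an actin-linked protein of focal adhesions and the most abundant of the list, had -0.30. Without anti-ENG 1 and IgG control 1 the values were 0.27 for FERMT1, -0.094 for FERMT3, 0.15 for ITGB1BP1 and 0.032 for ZYX, and the list median was 0.0084.

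**Figure D5:**
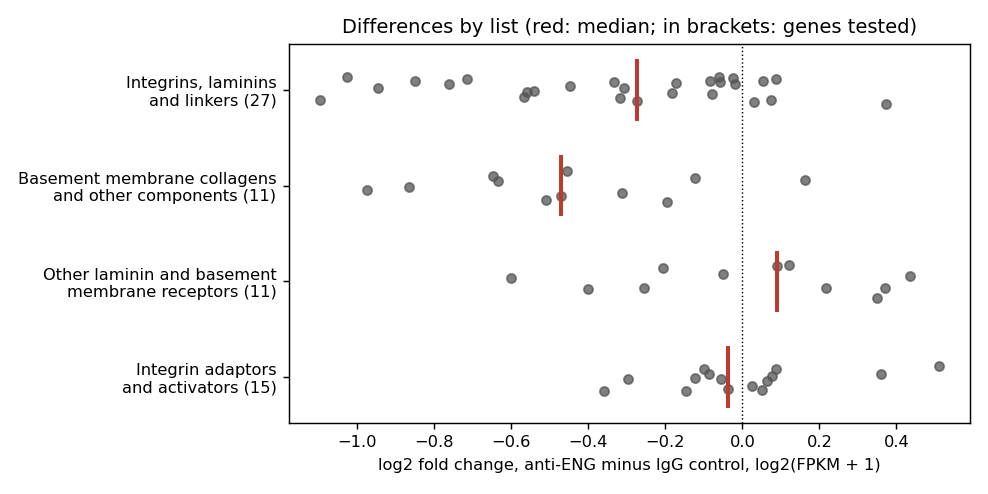
Log2 fold changes, anti-ENG minus IgG control, of the tested genes in 4 lists, 1 point per gene, spread up and down only to keep points apart, with a red bar at each median. The medians are -0.27 for the 27 integrins, laminins and linkers, -0.47 for 11 basement membrane collagens and components, 0.090 for 11 other receptors and -0.038 for 15 integrin adaptors.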

How the data were processed

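RNA of 6 tumours, 3 anti-ENG and 3 IgG control by sample title, was compared. The deposited values are FPKM, 1 column per tumour. The submitters' processing notes list Cufflinks 2.2.1, Cuffnorm, TopHat2 2.0.10 and Bowtie 1.0.0 among the authors' tools, without their roles, and the build GRCh37 (hg19). Neither the scaling nor the handling of mouse reads is given in the sources used here. More than 1 library kit and more than 1 instrument stand in the labels' protocols, unassigned to samples, so kit or instrument and treatment cannot be told apart if they differed by arm. One kit marks strand, but strand use in counting is not given.

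FPKM are not counts, so no count test was run. Log2(FPKM + 1) was fitted with limma 3.58.1 in R 4.3.3 (variance trend, no block, two-sided, Benjamini-Hochberg over the 12586 genes averaging 1 FPKM or more). This scale understates changes of low genes. The fit was tested on simulated data. Members and lists were chosen with earlier results of these data known. Named with full statistics were tested members with a mean of at least 50 FPKM and the 4 of smallest p in each direction. Of each list, the 3 of smallest p and the most abundant gene were named with their log2 fold changes. Other members are given by their values, except 1 tested laminin chain and 2 cell type markers, which are not reported here singly but stay in the counts. Known chain pairs and trimers were counted as expressed at 1 FPKM in all tumours. A human reference was not used here, so no sequence is printed. Alternatives covered the pseudocount, filter, scaling, variance model, weights, blocks and left-out tumours.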

Additional observations from a re-analysis of the deposited data

How the results depend on the processing

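No member and no gene passed the adjusted threshold under any of the 17 alternative fits. The replicate block left the median of the members at -0.27 and the count of lower estimates at 22, with a smallest adjusted p of 0.641 among them. The numbers pair no samples by the labels, and same-numbered tumours deviated from their group means with correlations of -0.33, 0.19 and 0.037. Without both anti-ENG 1 and IgG control 1 the members with lower estimates numbered 13 of 26 (all genes 46.2%). The median of all members fitted was 0.017. Of the genes picked by mean or p, AGRN (0.19), ITGB1 (0.092) and the adaptor ZYX (0.032) turned above 0. So did the members HSPG2, ITGA2, ITGAV, LAMA3, LAMA5 and NID2. With no filter on low values the median was -0.078 over all 43 members. Members whose groups did not overlap numbered 3 at a mean of at least 5 FPKM (all genes 19.0%), 8 with the same sum of FPKM (all genes 17.75%) and 13 with tumours of one code number averaged, where 41% of all genes did not overlap because fewer samples were compared. This count was 5 to 11 when 1 tumour was left out, where 23.2 to 33.2% of all genes did not overlap. Leaving out 1 tumour gave -0.58 to 0.016 for AGRN, -0.16 to 0.0094 for ITGB1, -0.23 to 0.40 for ITGA6, -0.049 to 0.18 for ITGA3 and -0.33 to 0.45 for LAMB3. With the same sum of FPKM LAMB3 (-0.045), ITGA3 (-0.033) and ITGA6 (-0.064) turned below 0, as did LAMB3 with quantile normalization (-0.030) and ITGA6 with code numbers averaged (-0.15). The cause of these turns was not tested. At 5 FPKM 2 laminin trimers had all chains. With 3 tumours a group, and absolute depth unknown, differences of members may have been missed at any level, those under 1 FPKM included.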
